A study of Mus musculus with 6 samples.

Results

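Lysosomal genes were examined as 46 genes chosen by name: 12 proteases (the cathepsins, legumain and tripeptidyl peptidase 1), the protease inhibitor Cst3, progranulin (Grn), 11 glycosidases, 5 sulfatases, 8 genes of lipid breakdown and transport, 5 membrane proteins and the 3 transcription factors Tfeb, Tfe3 and Mitf. All 46 were found by symbol among the 53379 gene identifiers of the files, and all 46 passed the filter on low counts. The data are RNA sequencing counts from 6 libraries of the cerebral cortex of C57BL/6 mice aged 2 months. Of these, 3 were labelled wild type (replicates 1, 3 and 4) and 3 were labelled GTF2ird1-/- (replicates 5, 6 and 7), that is, with both copies mutated of a transcription factor gene of the Williams syndrome region. No treatment, transgene or Cre driver is named for either group. The series title calls the cells Gad2+ neurons, and neither the method of isolation nor the mutated part of the gene is given in the sources used here. Nothing in the labels says that each library came from its own animal, so p-values measure the spread between these libraries, which may be partly technical.

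The lysosome is the acidic compartment in which cells break down protein, sugar chains, lipid and engulfed material. Its soluble hydrolases are delivered as precursors through the Golgi and matured by cleavage, and its membrane is coated by heavily glycosylated proteins such as LAMP1 and LAMP2. The factors TFEB, TFE3 and MITF bind E-box motifs of the CLEAR type (coordinated lysosomal expression and regulation) in the promoters of many lysosomal genes. In the brain, microglia, the resident macrophages, are rich in cathepsins, and loss of many of these hydrolases causes lysosomal storage disease with neurodegeneration.

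Promoter sequences of the members were searched for these motifs. Of the 46 members, 41 matched a RefSeq promoter (GRCm38.p6), which runs from 250 bases before to 50 after a start site. The CLEAR palindrome of 10 bases, which is TCACGTGA with a G before it and a C after it, was in none of the 41, against 0.759% of tested genes with a promoter. Those inner 8 bases, TCACGTGA, were in 3 of 41 (7.32%), Ctsa, Ctsd and Gla, against 2.13% of tested genes. The core CACGTG, which lies within both longer motifs, was in 12 of 41 (29.3%), against 11.3%. All 3 are palindromes, so both strands were searched. The 4 promoters below were chosen, after the matches were seen, to show 1 protease of each of 2 classes, 1 membrane protein and 1 glycosidase. Capitals mark CACGTG, extended to TCACGTGA where those letters were present.
Ctsd, chr7:142387778-142388077, minus strand: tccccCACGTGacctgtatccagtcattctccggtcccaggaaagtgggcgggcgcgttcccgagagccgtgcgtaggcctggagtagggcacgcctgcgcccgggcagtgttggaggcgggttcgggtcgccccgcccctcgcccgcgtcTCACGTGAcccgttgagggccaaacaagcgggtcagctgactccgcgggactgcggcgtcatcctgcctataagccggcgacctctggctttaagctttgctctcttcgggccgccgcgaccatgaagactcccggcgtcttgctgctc
Ctsa, chr2:164833523-164833822, plus strand: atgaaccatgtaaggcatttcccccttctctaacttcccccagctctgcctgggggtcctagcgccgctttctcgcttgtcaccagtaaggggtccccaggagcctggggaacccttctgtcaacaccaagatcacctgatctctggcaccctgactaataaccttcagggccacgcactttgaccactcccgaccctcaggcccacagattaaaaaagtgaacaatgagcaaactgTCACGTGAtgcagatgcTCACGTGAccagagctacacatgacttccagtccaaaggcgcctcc
Lamp1, chr8:13158911-13159210, plus strand: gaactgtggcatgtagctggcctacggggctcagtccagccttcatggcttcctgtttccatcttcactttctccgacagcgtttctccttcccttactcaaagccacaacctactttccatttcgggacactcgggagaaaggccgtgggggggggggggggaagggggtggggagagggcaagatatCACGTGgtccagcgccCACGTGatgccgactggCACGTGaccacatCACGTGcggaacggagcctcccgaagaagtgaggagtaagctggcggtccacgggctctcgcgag
Naglu, chr11:101069844-101070143, plus strand: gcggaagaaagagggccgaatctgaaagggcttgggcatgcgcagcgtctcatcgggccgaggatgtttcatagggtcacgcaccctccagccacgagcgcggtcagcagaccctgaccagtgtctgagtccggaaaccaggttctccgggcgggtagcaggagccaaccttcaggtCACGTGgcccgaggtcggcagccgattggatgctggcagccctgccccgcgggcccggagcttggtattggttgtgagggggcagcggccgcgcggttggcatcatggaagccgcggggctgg
Counted from the start site, the first base of the 8-base motif lay at -99 in Ctsd and at -13 and 5 in Ctsa. Lamp1 carried 4 cores, beginning at -61, -45, -28 and -15, and Naglu 1, at -73. These are matches of letters, not measured binding.

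Library totals ran from 13627501 to 30544144 gene counts, and the lowest count of any member in any library was 83, for Gla. Ribosomal RNA made 17.5% of gene counts in wild type replicate 3, 6.2% in knockout replicate 6 and at most 1.51% elsewhere. In all 6 libraries the 19 microglial markers summed to between 33200 and 53040 CPM (read counts scaled to a common library size, with TMM factors), and the 14 GABAergic neuron markers to between 235 and 1011 CPM, so by these markers microglial RNA far exceeded GABAergic neuron RNA. Gad2 itself was detected in every library, at 29.0 to 121 CPM. Gtf2ird1 had 23.4, 31.5 and 52.7 CPM in wild type against 49.7, 40.6 and 48.8 CPM in the labelled knockouts, with overlap (edgeR adjusted p = 0.703). That count covers the whole gene and does not check the labels. Astrocyte markers summed to 3784, 663 and 306 CPM in wild type against 6761, 3698 and 4217 CPM in the labelled knockouts. Y-linked transcripts were at 390 and 474 CPM in knockout replicates 5 and 6 and at most 0.219 CPM in the other 4 libraries. Xist, an X-linked transcript, was at 0 and 0.18 CPM in knockout replicates 5 and 6 and at 1568 to 3616 CPM elsewhere. Sex-linked expression and group thus cannot be fully told apart. In bulk RNA, fewer cells of a type and less RNA per cell cannot be told apart.

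Lysosomal transcripts were among the most abundant protein-coding transcripts of these libraries. Ranked by mean CPM per kilobase of exon, 4 members stood in the top 10, 5 in the top 20 and 11 in the top 100. The top member was Cst3, which encodes the secreted cysteine protease inhibitor cystatin C. It ranked 1 on average and between 1 and 2 in each library, with a mean of 5108 CPM per kilobase. Ctss, a cysteine protease of macrophages that stays active at neutral pH, ranked 4, at 1961 CPM per kilobase. Lgmn (legumain, which cleaves after asparagine and matures several cathepsins) ranked 9, Ctsd (the main aspartic protease of the lysosome) ranked 10, and Psap (the precursor of the saposins, which present sphingolipids to hydrolases) ranked 15. Their means were 1262, 1147 and 912 CPM per kilobase.

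A second tier lay well below these 5. Ctsz, a carboxypeptidase, was next at 275 CPM per kilobase, followed by Lamp1 at 260, Grn at 246, Ctsb at 244 and Hexa at 241. In the 4 neighbouring pairs of this order, from Ctsz over Lamp1 to Ctsb over Hexa, the gene with the higher mean led in only 3 of 6 libraries. Genes further apart in the order could still be separated: Ctsz exceeded Ctsb and Hexa, and Lamp1 exceeded Ctsb, in all 6. Above them, Cst3, Ctss, Ctsd and Psap each exceeded the next gene in all 6 libraries, and Lgmn exceeded Ctsd in 5. At the other end, Galc, which breaks down galactosylceramide of myelin, had the lowest mean at 2.04 CPM per kilobase, and Gla, the alpha-galactosidase lacking in Fabry disease, had 3.72. Tfe3, Tfeb and Mitf were low, at 13.3, 9.50 and 6.15 CPM per kilobase.

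**Figure D1:**
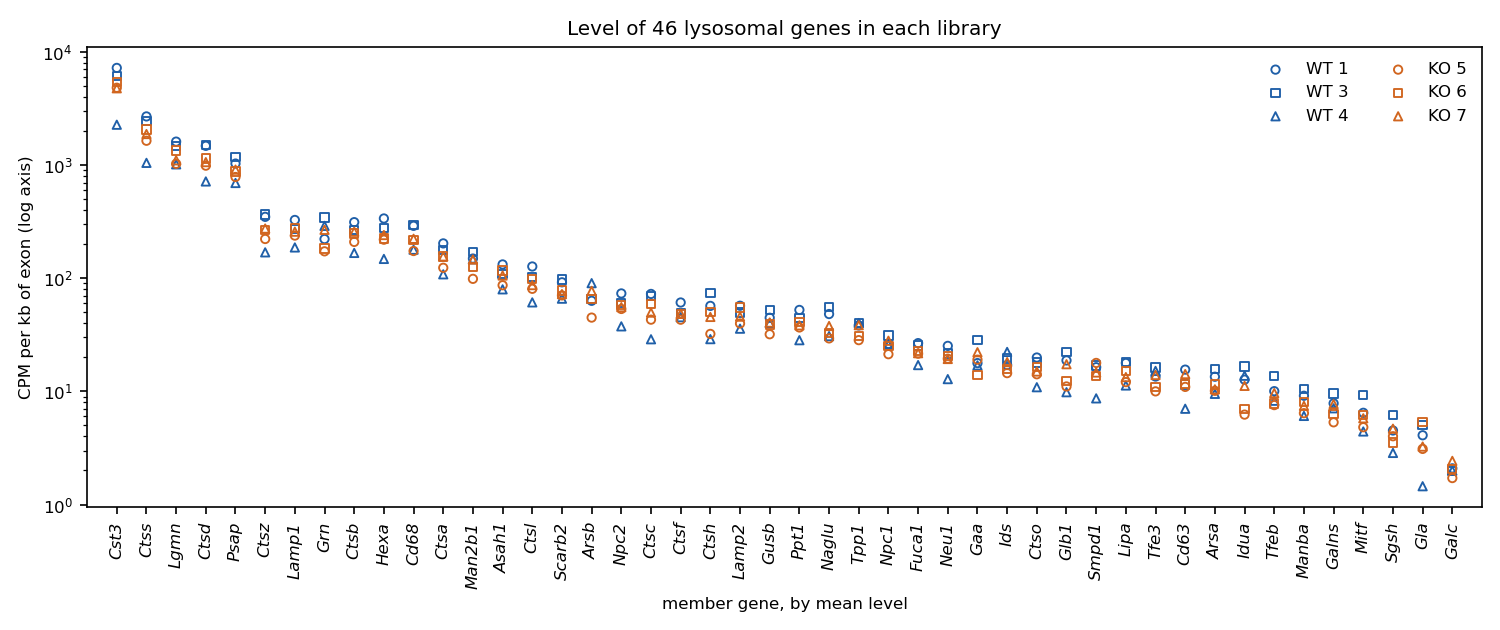
Level of each of the 46 members in each library, as CPM per kilobase of exon on a log axis, with genes ordered by mean. Blue points are wild type and orange points are libraries labelled knockout. Cst3 leads at a mean of 5108 and Galc is last at 2.04, and the triangle of wild type replicate 4 is the lowest point for most abundant genes.

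Between the groups, no member passed the test. By edgeR, 0 of 46 had an adjusted p under 0.05, where 0.00581% of the 17221 tested genes were called, and DESeq2 and limma-voom also called 0 members, with 0.122% and 0.00581% of tested genes called. At an unadjusted p under 0.05 there was 1 member, Idua, of 46 (2.17%), below the 7.25% of all tested genes (DESeq2 1 member beside 9.17%, limma-voom 2 beside 8.52%). Groups did not overlap for 2 members, Idua and Man2b1, or 4.35% of the list. Both were lower in the labelled knockouts, as were 6.68% of tested genes, and 0 members were higher without overlap, where 6.34% of tested genes were. The fitted changes were small. All but 1 of the 46 lay within 0.5 of 0 on the log2 scale (74.6% of tested genes), with standard errors from 0.15 to 0.46.

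The sign of these small values depended on how libraries were scaled. With TMM, 42 of 46 members had a log2 fold change below 0 and 4 above 0 (46.3% of tested genes were above 0), with a median of -0.18 against -0.03 over all tested genes. Leaving out 1 wild type library gave a median of -0.12 (replicate 1), -0.057 (replicate 3) or -0.37 (replicate 4). It was between -0.23 and -0.12 without 1 of the labelled knockouts, and -0.088 with the Y-linked level as a covariate. With that covariate, here and below, the group difference rested mainly on knockout replicate 7, the only labelled knockout with few Y-linked reads. With library totals alone 18 were above 0, and with scaling to the microglial markers 33 were above 0, at member medians of -0.01 and 0.11. Library totals include ribosomal RNA, which made 17.5% of gene counts in wild type replicate 3. On the microglial scale 10 of 46 members had groups that did not overlap, beside 15.1% of tested genes. Those scalings moved the median of all tested genes to 0.11 and 0.21, so the members lay below it in each case. Across TMM and the 17 alternatives together, 12 members were negative throughout, and the lowest adjusted p of any member was 0.144, for Idua without wild type replicate 1.

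**Figure D2:**
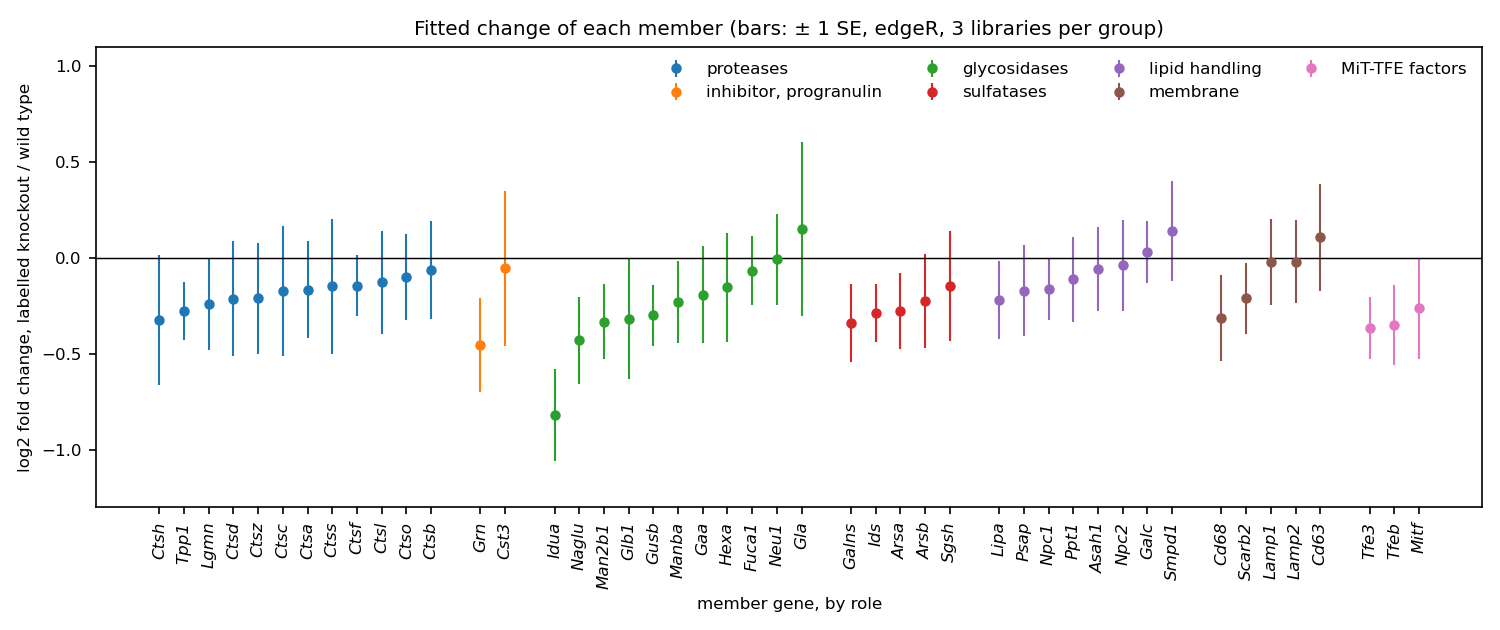
Log2 fold change of each member, libraries labelled knockout over wild type, grouped by role, with bars of 1 SE (edgeR, TMM, 3 libraries per group). Values run from -0.82 for Idua to 0.15 for Gla, and no member passed the adjusted threshold.

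Proteases and their inhibitor varied mainly within wild type. Cst3 was at 9131, 7760 and 2875 CPM in wild type (replicates 1, 3 and 4, the order used throughout) against 6101, 6901 and 6032 CPM in the labelled knockouts (5, 6 and 7). The 3 libraries labelled knockout thus lay between wild type replicate 4 and the other 2, giving a log2 fold change of -0.05 ± 0.41 (SE), with adjusted p = 0.971 by edgeR. The same order held for Ctss, at 3651, 3330 and 1420 CPM in wild type against 2226, 2799 and 2552 CPM in the labelled knockouts (adjusted p = 0.903, edgeR).

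Ctsd was at 3475, 3528 and 1683 CPM in wild type against 2321, 2680 and 2494 CPM in the labelled knockouts, a log2 fold change of -0.21 ± 0.30 (SE). Lgmn spread less, at 3739, 3437 and 2354 CPM against 2380, 3122 and 2558 CPM. For both genes the labelled knockout values lay inside the wild type range. Ctsb, an endopeptidase that also trims peptide ends, was at 1892, 1613 and 1012 CPM against 1266, 1503 and 1558 CPM, and Ctsz at 502, 528 and 244 CPM against 320, 385 and 396 CPM. These 2 showed full overlap as well. All 12 proteases had negative values, from -0.32 (Ctsh, an aminopeptidase) to -0.06 (Ctsb). Tpp1, the peptidase lost in 1 form of neuronal ceroid lipofuscinosis, had another pattern: wild type was tight at 198, 207 and 208 CPM, against 146, 159 and 199 CPM (adjusted p = 0.638, edgeR).

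Grn, whose secreted product is cut into granulins and whose loss impairs lysosomes, did not follow the cathepsins. It had 771, 1192 and 1007 CPM in wild type against 600, 638 and 929 CPM in the labelled knockouts. Wild type replicate 4 was the middle value of its group here, and the groups overlapped. Its log2 fold change, -0.45 ± 0.24 (SE), with adjusted p = 0.638 by edgeR, was the second lowest of the 46. It was -0.29 with library totals, -0.23 with scaling to the microglial markers, -0.29 without wild type replicate 3 and -0.057 with the Y-linked covariate.

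Among glycosidases, Idua had the lowest fold change of any member. It encodes alpha-L-iduronidase, which trims dermatan and heparan sulfate and is lacking in mucopolysaccharidosis type I. Its levels were 53.3, 69.8 and 57.8 CPM in wild type against 26.2, 29.2 and 47.0 CPM in the labelled knockouts, with no overlap. The fold was 0.567 (95% interval 0.383 to 0.839) and the log2 fold change -0.82 ± 0.24 (SE), but with adjustment over all tested genes it did not pass (edgeR unadjusted p = 0.0107, adjusted p = 0.637, n = 3 each). Knockout replicate 7, with few Y-linked reads like wild type, was nearest to wild type. With the Y-linked level as a covariate the log2 fold change was -0.32, a value resting mainly on that library. The part of Y-linked expression in the Idua value was not tested further. The gene lies on chromosome 5 from 108660331 to 108684557 (GRCm38), 25.7 Mb from Gtf2ird1 on the same chromosome. Exons of Dgkq and Slc26a1 on the opposite strand cover 6.3% of its exon bases, and the strand setting of the counting is not given. Dgkq was at 58.4 to 69.2 CPM in wild type and 58.4 to 60.8 CPM in the other group.

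The other glycosidases had smaller fitted changes. Man2b1, lysosomal alpha-mannosidase, was at 1197, 1365 and 1180 CPM against 792, 1005 and 1173 CPM. Its groups did not overlap, but the nearest libraries, at 1180 and 1173 CPM, were almost level, and its adjusted p was 0.652 (edgeR). Naglu, which removes N-acetylglucosamine from heparan sulfate, was at 128, 148 and 81.8 CPM against 78.1, 86.8 and 101 CPM, with overlap through wild type replicate 4. Hexa, the alpha subunit of the beta-hexosaminidase that degrades GM2 ganglioside, had 673, 551 and 295 CPM against 437, 449 and 480 CPM. Gla, on the X chromosome, was the most variable member, at 13.4, 16.5 and 4.74 CPM against 10.1, 17.6 and 10.6 CPM, a 3.72-fold range over the libraries. Its log2 fold change of 0.15 ± 0.46 (SE) was the highest of the 46.

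Sulfatases, which remove sulfate from glycosaminoglycans and sulfatide, all had negative values, from -0.34 for Galns to -0.15 for Sgsh, with no member under an unadjusted p of 0.05. Arsb stood apart in its order, with wild type replicate 4 the highest library at 546 CPM and knockout replicate 5 the lowest at 271 CPM. Ids, the iduronate sulfatase of the X chromosome, was also highest in wild type replicate 4, at 114 CPM.

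For lipid genes the median log2 fold change was -0.08. Psap was at 2825, 3225 and 1904 CPM in wild type against 2152, 2409 and 2500 CPM in the labelled knockouts, which lay within the wild type range. Smpd1, acid sphingomyelinase, had 54.5, 56.6 and 28.9 CPM against 59.5, 45.7 and 49.0 CPM, and a log2 fold change of 0.14 ± 0.26 (SE). Galc was nearly level, at 31.1, 29.5 and 29.7 CPM against 25.5, 30.5 and 36.2 CPM, a fold of 1.02 (95% interval 0.786 to 1.32). Npc1 and Npc2, which together export cholesterol from the lysosome, had log2 fold changes of -0.16 and -0.04. Asah1, Lipa and Ppt1, an acid ceramidase, the acid lipase and a thioesterase, ranged from -0.22 to -0.06.

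Among membrane proteins, Lamp1 was at 875, 729 and 500 CPM in wild type against 637, 747 and 689 CPM in the labelled knockouts. Cd63, a tetraspanin of late endosomes and exosomes, was at 57.3, 42.3 and 25.9 CPM against 40.3, 42.6 and 52.4 CPM, with a log2 fold change of 0.11 ± 0.28 (SE). Both overlapped fully. Lamp2 and Scarb2, the latter the carrier of glucocerebrosidase, had -0.02 and -0.21, and the macrophage sialomucin Cd68 -0.31, none with an unadjusted p under 0.05 (edgeR).

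The transcription factors all had negative values. Tfe3 was at 125, 150 and 140 CPM in wild type against 92.6, 101 and 129 CPM in the labelled knockouts, overlapping only through knockout replicate 7 (log2 fold change -0.37 ± 0.16 SE, edgeR unadjusted p = 0.0576, adjusted p = 0.637). Tfeb was at 56.9, 77.4 and 46.9 CPM against 42.9, 44.3 and 54.8 CPM. Mitf was at 40.1, 57.4 and 27.4 CPM against 29.9, 38.1 and 35.8 CPM. Tfe3 and Tfeb were negative in all 18 settings, with -0.14 and -0.07 after scaling to the microglial markers and -0.08 and -0.12 with the Y-linked covariate. With TMM, members with the core motif in their promoter (12) showed a median log2 fold change of -0.18, and those without it (29) -0.21.

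The members varied together from library to library, with wild type replicate 4 farthest from the rest. Wild type replicate 4 was the lowest library for 30 of 46 members (65.2%, against 25.6% of tested genes), and knockout replicate 5 for 15 (32.6%, against 19.2%). Wild type replicate 1 or 3 was the highest for 40. The same count over all tested genes was not made. These places depend on the TMM factors, of which that of wild type replicate 3 was the lowest, at 0.811. As a share of gene counts the members made 2.815% in that library, below 2.909% and 2.908% in knockout replicates 6 and 7. Gene counts include ribosomal RNA, which was highest in that library, at 17.5%. The first principal component of the members held 69.6% of their variance and placed wild type replicates 1, 3 and 4 at 1.98, 2.11 and -3.17, with the libraries labelled knockout between -1.20 and 0.22. Over all tested genes the first component held 50.5% of the variance. It instead placed wild type replicates 3 and 4 together, at -59.3 and -51.0, and wild type replicate 1 with the other group. The median coefficient of variation of the members was 26.7% in wild type and 12.8% in the libraries labelled knockout, beside 25.1% and 15.2% over all tested genes.

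**Figure D3:**
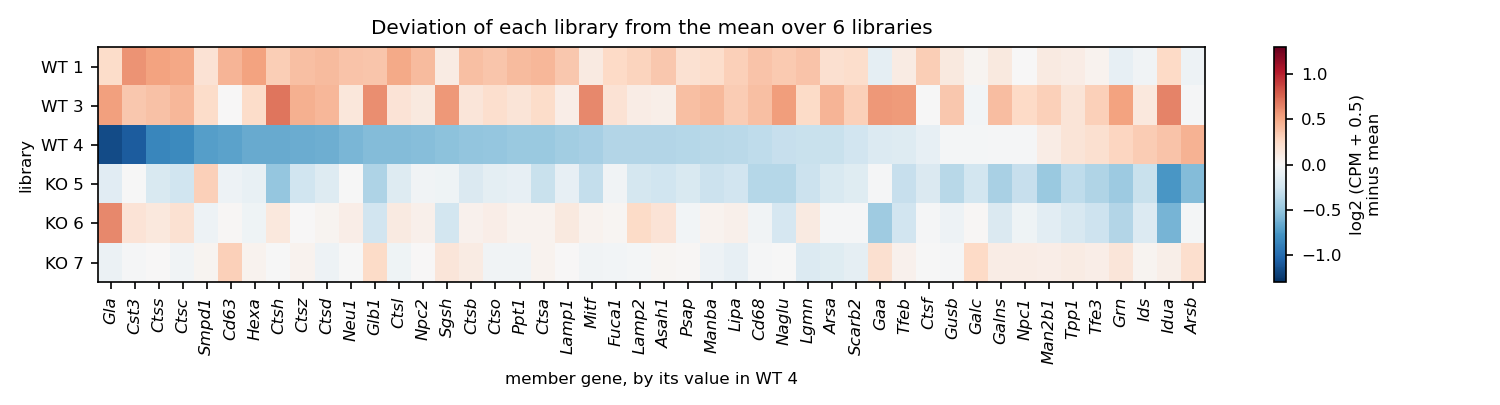
Deviation of each library (rows) from the mean over the 6 libraries for each member (columns, ordered by wild type replicate 4), as log2(CPM + 0.5), red above and blue below the mean. With TMM scaling, wild type replicate 4 is below the mean for most members and above it for 7, ending with Arsb. On the same scale wild type replicates 1 and 3 are above it for 42 and 43 of 46.

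The 15 members that were lowest in knockout replicate 5 were Ctsf, Tpp1, Grn, Gusb, Man2b1, Naglu, Idua, Arsb, Ids, Galns, Galc, Npc1, Cd68, Tfeb and Tfe3. They include Tfeb and Tfe3 and, of the 10 members highest per kilobase, only Grn. Their median log2 fold change was -0.31, against -0.15 for the 30 lowest in wild type replicate 4, and the GC content of their longest transcripts had a median of 52.9% against 51.2%. These sets were formed from the values and were not tested.

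Microglial markers varied with the members. Summed over the 46, the members made 36450, 34770 and 19710 CPM in wild type against 24530, 29080 and 27750 CPM in the labelled knockouts, or 30310 ± 9219 and 27120 ± 2339 CPM (SD, n = 3 each). The 19 microglial markers summed to 53040, 51240 and 33200 CPM and to 34000, 42540 and 38610 CPM, so on this scale both sums ranked the libraries in the same order. Both sums use the same TMM factor in each library, so part of the shared order is built in. By library totals the member order changed: wild type replicate 3 (2.815% of gene counts) fell below knockout replicates 6 and 7 (2.909% and 2.908%). Those totals include ribosomal RNA, at 17.5% of gene counts in wild type replicate 3 against 6.2% and 0.978% in knockout replicates 6 and 7. The part of ribosomal RNA in this change of order was not tested. As a percentage of the microglial sum the members made 68.7%, 67.9% and 59.4% in wild type and 72.1%, 68.4% and 71.9% in the other group, a narrower range. All 19 microglial markers also had negative log2 fold changes, with a median of -0.24. The part of microglial content in the members' values was not tested, nor was that of astrocyte or oligodendrocyte RNA. All 16 astrocyte and all 12 oligodendrocyte markers had positive log2 fold changes, with medians of 1.79 and 1.35. By edgeR 0 of either list passed adjustment, with 7 and 2 under an unadjusted p of 0.05, beside 7.25% of tested genes. Without wild type replicate 1, 10 astrocyte and 6 oligodendrocyte markers passed and the medians were 3.16 and 3.06, where 1.85% of tested genes were called by edgeR. The oligodendrocyte median was 0.89 without wild type replicate 4, and no marker of either list passed without any of the other 5 libraries. In those 5 settings 0 to 6 astrocyte and 0 to 1 oligodendrocyte markers were under the unadjusted p, beside 1.75% to 17.2% of tested genes.

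**Figure D4:**
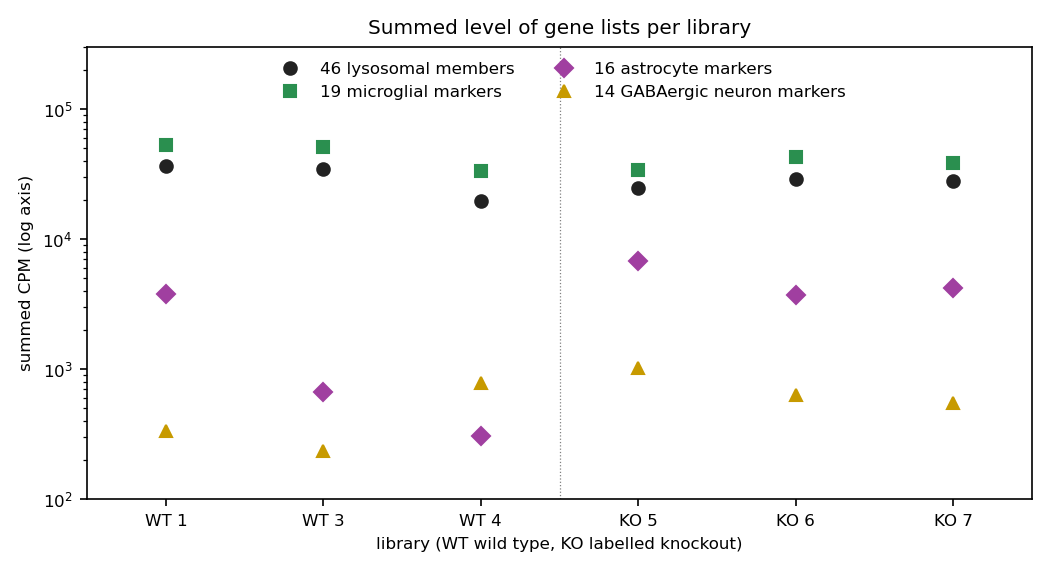
Summed CPM of the 46 members, 19 microglial, 16 astrocyte and 14 GABAergic neuron markers in each library, on a log axis. Scaled by the same TMM factors, members and microglial markers rank the libraries in the same order. They span 19710 to 36450 and 33200 to 53040 CPM, while the astrocyte sum spans 306 to 6761 CPM.

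Relative to the microglial sum, the range of single members over the libraries went from 1.06-fold for Lipa to 2.90-fold for Gla. Lipa held between 0.228% and 0.241% of it in the 6 libraries and Lgmn between 6.63% and 7.34%. Cst3 was at 8.66% of it in wild type replicate 4 and at 15.2% to 17.9% elsewhere, and Ctss at 4.28% there and 6.50% to 6.88% elsewhere. On this scale wild type replicate 4 had relatively more Arsb, at 1.64% against 0.719% to 1.21%. Ctso, Neu1, Fuca1, Asah1, Lamp1 and Lamp2 were higher on it in the labelled knockouts without overlap, and no member was lower without overlap. The same comparison over all tested genes was not made.

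Leaving out wild type replicate 4 changed the picture of the list without giving a call. All but 1 member (Galc, at 0.02) then had negative log2 fold changes, with a median of -0.37, and 19 of 46 (41.3%) had an unadjusted p under 0.05, beside 17.2% of tested genes. No member passed adjustment (edgeR, 0.0167% of tested genes called), and the lowest adjusted p there was 0.157, for Naglu. The groups of 31 of 46 members did not overlap, beside 36.8% of tested genes. The microglial markers had a median of -0.44 in that setting, with 10 of 19 under the unadjusted p. Without wild type replicate 1, by contrast, 19 members were positive and 4 (8.70%) had an unadjusted p under 0.05, where 18.6% of tested genes did and 1.85% were called by edgeR.

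**Figure D5:**
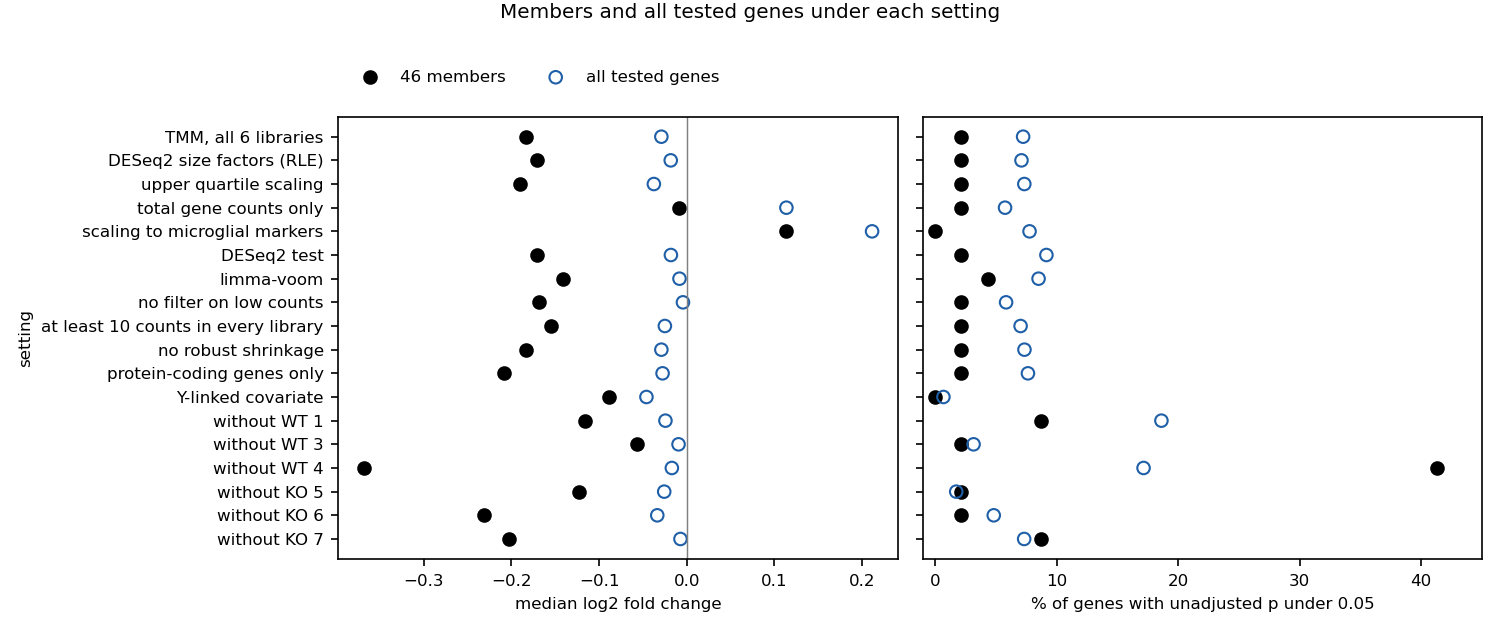
Left, the median log2 fold change of the 46 members (filled) and of all tested genes (open) under each of 18 settings, right, the percentage of each with an unadjusted p under 0.05. The median of the members is negative in all settings but scaling to microglial markers (0.11), and their share exceeds that of all genes most without wild type replicate 4 (41.3% against 17.2%).

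No gene of the further lysosomal lists passed either. Of 143 genes in 7 further lists, 136 were tested and 0 passed by edgeR. Of the 136, 5, or 3.68%, had an unadjusted p under 0.05 (edgeR), beside 7.25% of all tested genes. The median log2 fold change of the 136 was -0.06. Other hydrolases showed a median of -0.11 over 27 tested genes, led by Dnase2a, the acid DNase, at 116 ± 15.9 and 91.5 ± 14.1 CPM (SD, n = 3 each). Other membrane proteins had -0.18 over 24, and this was the list with 2 genes under the unadjusted p, both lower: Slc38a9, the arginine sensor of mTORC1, at 98.4, 126 and 130 CPM against 73.6, 91.0 and 97.1 CPM, and the proton channel Tmem175 at 47.9, 59.0 and 43.5 CPM against 36.1, 38.8 and 41.5 CPM (edgeR adjusted p = 0.637 for both). Both had groups that did not overlap, as had 15 of the 136 tested genes of these lists, 10 of them lower and 5 higher. Over all tested genes, 6.68% were lower and 6.34% higher without overlap.

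The proton pump (19 tested subunits) had a median of -0.01, with Tcirg1, the a3 subunit, at 540 ± 67.0 against 417 ± 38.9 CPM (SD, n = 3 each). Enzymes and receptors of the mannose 6-phosphate and sorting routes had -0.06 over 17, mTORC1 genes -0.02 over 22 and autophagy genes 0.02 over 22. In these, Rragb and Rragd, Rag GTPases that recruit mTORC1 to the lysosome, were at 3.54 ± 0.66 and 5.73 ± 2.06 CPM in wild type against 6.02 ± 1.68 and 9.63 ± 1.48 CPM (SD, n = 3 each), with adjusted p = 0.637 by edgeR for both. Gabarapl1, an LC3-family autophagy protein, was at 35.4 ± 8.36 and 51.4 ± 10.4 CPM (adjusted p = 0.637, edgeR). The 5 tested inhibitors of proteases other than Cst3 all had positive values, from 0.01 to 1.26, and none passed adjustment. Serping1 led them at a level near the floor, 0.459 ± 0.097 and 1.13 ± 0.454 CPM (edgeR adjusted p = 0.637).

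Some members share sequence with neighbours. The annotation places Gm49369 over 34.4% of the exon bases of Ctsd on the same strand, and Gm49230 over 6.09% of those of Ctsl, and both neighbours had a count of 0 in all 6 libraries. Tmppe overlaps 5.49% of Glb1 exon bases on the same strand and was at 38.7% of its level. On the opposite strand, exons of other genes cover 39.9% of Arsb, 26.8% of Ctsl, 21.6% of Sgsh, 18.8% of Arsa and 17.4% of Ctsa. Cap1 covers 3.51% of Ppt1 and was at 222% of its level. Those matter only if counting ignored strand, and that setting is not given. Reads over shared bases may be uncounted as ambiguous, which would lower CPM per kilobase, as for Ctsd. Ambiguous reads made between 1.94% and 14.5% of all reads, highest in wild type replicate 3. Besides Idua, 2 members lie on chromosome 5: Gusb, beta-glucuronidase, 4.37 Mb from Gtf2ird1 with a log2 fold change of -0.30, and Scarb2, 41.9 Mb away with -0.21. Of the 4 X-linked members, Gla, Ids, Lamp2 and Tfe3, the values ran from -0.37 to 0.15.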

How the data were processed

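For each library the authors deposited unnormalized gene counts, and per the submitters' processing notes the tools were Trim Galore 0.60, STAR 2.7 and HTSeq 1.31 on mm10. Per the labels' protocols, libraries came from a stranded total RNA kit. Annotation release, counting mode and strand setting are unstated in those sources. The 5 summary lines per file were left out, and reads outside genes made 40% to 58.2% of all reads. Symbols, exon lengths and positions came from GENCODE M21 (GRCm38), which matched 53274 of 53379 identifiers.

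Counts were tested with edgeR 4.0.16 in R 4.3.3 (quasi-likelihood F-test, TMM, expression filter by group, robust shrinkage, Benjamini-Hochberg adjustment over 17221 genes, threshold 0.05, two-sided), and the procedure was tested on simulated data. DESeq2 1.42.0 and limma 3.58.1 were alternatives, with other scalings, filters, a Y-linked covariate and each library left out. With 3 against 3, precision rests on the spread between libraries, not on depth. Libraries of 1 group differed by more than counting noise (chi-square per degree of freedom at least 49.9), so none was treated as a library deposited more than once. Separate preparations of 1 RNA would exceed that noise too, so this does not show that the libraries are independent samples. CPM per kilobase divides CPM by the union of exon bases.

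Values in every library are given for the 10 members highest per kilobase, members with an unadjusted p under 0.05, the 4 largest changes per direction above a mean of 1 CPM, the 3 factors and any member that passed without 1 library. The further lists name up to 3 genes with the smallest p. Man2b1, Tpp1, Arsb and Ids were added after their values were seen. Members and lists were chosen with earlier results of these data known.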

Additional observations from a re-analysis of the deposited data

How the results depend on the processing

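No member passed adjustment in any of the 17 alternatives. Members above 0 numbered 4 with TMM, 18 with library totals, 33 with scaling to microglial markers, 9 with limma-voom, 7 with at least 10 counts in every library, 9 with the Y-linked covariate, and 1 to 19 with 1 library left out. Members with an unadjusted p under 0.05 numbered 1 with TMM (7.25% of tested genes), 0 with microglial scaling (7.78%), 2 with limma-voom (8.52%), 0 with the Y-linked covariate (0.697%) and 1 to 19 with 1 library left out (1.75% to 18.6%). Members whose groups did not overlap numbered 2 with TMM (both lower, as 6.68% of tested genes), 1 with DESeq2 size factors (12.7% in either direction), 1 with library totals (10.7%), 10 with microglial scaling (15.1%) and 1 to 31 with 1 library left out (15.2% to 38.1%). Over all tested genes, calls of higher level numbered 1 with TMM, 2 with microglial scaling, 15 with DESeq2, 4 with no filter, 0 with at least 10 counts, 0 with protein-coding genes only and 1 to 306 with 1 library left out, the most without wild type replicate 1. Calls of lower level numbered 0, and 6 with DESeq2, 1 with no filter and 0 to 15 with 1 library left out. The summed level of the members, 30310 CPM in wild type and 27120 in the libraries labelled knockout with TMM, turned to 26740 and 29630 with microglial scaling and to 28440 and 28520 with library totals. With that scaling the log2 fold change turned positive for Cst3 (0.31), Ctss (0.19), Lgmn (0.041), Ctsd (0.11), Psap (0.12), Ctsz (0.11), Lamp1 (0.27), Ctsb (0.24), Hexa (0.18) and Mitf (0.036). With library totals it did so for Cst3 (0.12), Ctss (0.023), Lamp1 (0.13), Ctsb (0.095) and Hexa (0.011). Limma-voom gave 0.12 for Cst3 and 0.024 for Lamp1, at least 10 counts gave 0.0038 for Lamp1, and the Y-linked covariate gave 0.049 for Ctsb and -0.15 for Gla. With 1 library left out the ranges that crossed 0 were -0.41 to 0.25 for Cst3, -0.46 to 0.087 for Ctss, -0.21 to 0.17 for Lamp1, -0.28 to 0.13 for Ctsb, -0.42 to 0.10 for Hexa, -0.22 to 0.49 for Gla, -0.11 to 0.30 for Smpd1, -0.15 to 0.41 for Cd63, -0.093 to 0.15 for Galc and -0.49 to 0.041 for Mitf. The cause was not tested. No paired analysis was possible because the groups share no replicate numbers. Every member had at least 83 counts in each library, so the spread between libraries, not depth, limits these comparisons.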
